A study of Mus musculus with 13 samples.

Results

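The transcripts of 6 genes that encode peptide hormones best known from the stomach and intestine were followed from mouse embryonic stem cells through differentiating islet progenitors to adult islets: ghrelin (Ghrl), gastrin (Gast), secretin (Sct), cholecystokinin (Cck), gastric inhibitory polypeptide (Gip) and peptide YY (Pyy). They were chosen by gene symbol, with earlier results of these data known. They account for 6 of the 16593 gene symbols and 7 of the 25697 probes on the array. Ghrl has 2 probes and each of the other genes has 1. RNA of 13 samples, all labelled C57BL/6, was hybridised to single-colour Illumina bead arrays. As a negative control, 2 samples came from W9.5, an embryonic stem cell (ESC) line. Purified islet progenitors, whose source is given as pancreas, were sampled in 4 replicates at day 0, 3 at day 1 and 2 at day 4 as they differentiated. Adult islets, the positive control, had 2 samples. No genetic change or added agent is named for any group, and the labels give neither the age of the progenitors' donors nor the way in which the cells were purified. The stated interest of the series is how islet progenitors differentiate. The labels number the samples but name no separate animals or cultures, so the p-values rest on a spread between samples that may be technical.

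Gut hormones are made by enteroendocrine cells, scattered secretory cells of the gut lining that release peptides in response to food. Ghrelin stimulates appetite and growth hormone release, and in the developing mouse pancreas it marks epsilon cells, a small endocrine population. Gastrin drives acid secretion by the stomach and is also made for a time in the developing pancreas. Secretin stimulates bicarbonate secretion by pancreatic ducts, cholecystokinin stimulates enzyme release by acinar cells and contraction of the gall bladder, and gastric inhibitory polypeptide is an incretin that raises insulin release after a meal. Peptide YY slows gut movement and reduces appetite, and it occurs in endocrine cells of the developing and adult islet. Enteroendocrine and islet endocrine cells both arise from precursors that transiently express Neurog3, a basic helix-loop-helix transcription factor, and factors of this class bind E boxes, whose core is CANNTG.

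The upstream sequences of 5 of the genes are shown because Ghrl, Gast and Cck were called lower at day 4 than at day 0, whereas Sct and Pyy were not. Each stretch is the 250 bases before the most upstream start site listed by RefSeq (GRCm38.p6), read 5′ to 3′ on the gene's strand, with every CANNTG in capitals. The Ghrl window lies at chr6:113719912-113720161 on the minus strand and belongs to the most upstream of 4 listed start sites. The Gast window lies at chr11:100334157-100334406 on the plus strand and the Cck window at chr9:121495695-121495944 on the minus strand. The Sct window lies at chr7:141279134-141279383 and the Pyy window at chr11:102107833-102108082, both on the minus strand, the second of them being the most upstream of 2 start sites.
Ghrl: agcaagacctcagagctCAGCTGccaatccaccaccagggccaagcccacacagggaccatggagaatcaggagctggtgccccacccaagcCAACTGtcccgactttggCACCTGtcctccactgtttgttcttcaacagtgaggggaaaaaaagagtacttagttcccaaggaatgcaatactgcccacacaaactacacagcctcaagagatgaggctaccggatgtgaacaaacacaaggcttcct
Gast: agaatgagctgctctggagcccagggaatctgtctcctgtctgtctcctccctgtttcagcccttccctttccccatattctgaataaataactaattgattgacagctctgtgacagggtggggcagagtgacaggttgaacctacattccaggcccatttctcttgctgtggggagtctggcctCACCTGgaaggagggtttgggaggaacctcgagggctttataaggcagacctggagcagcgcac
Cck: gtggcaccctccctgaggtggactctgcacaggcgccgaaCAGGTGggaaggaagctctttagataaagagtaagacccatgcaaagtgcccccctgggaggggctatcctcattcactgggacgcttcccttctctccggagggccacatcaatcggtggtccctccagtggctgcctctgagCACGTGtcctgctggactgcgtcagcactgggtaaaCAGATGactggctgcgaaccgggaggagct
Sct: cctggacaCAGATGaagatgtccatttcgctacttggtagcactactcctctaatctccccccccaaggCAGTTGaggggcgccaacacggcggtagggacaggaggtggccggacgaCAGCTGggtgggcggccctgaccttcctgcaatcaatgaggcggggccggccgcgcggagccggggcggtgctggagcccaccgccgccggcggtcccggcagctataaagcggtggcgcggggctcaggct
Pyy: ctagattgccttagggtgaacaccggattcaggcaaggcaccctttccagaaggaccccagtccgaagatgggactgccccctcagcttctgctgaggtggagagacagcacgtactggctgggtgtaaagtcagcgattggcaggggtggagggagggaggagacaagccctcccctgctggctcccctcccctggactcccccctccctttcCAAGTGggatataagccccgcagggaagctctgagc
CANNTG reads the same on both strands. It had 3 matches upstream of Ghrl, 1 upstream of Gast and 3 upstream of Cck, and also 3 upstream of Sct and 1 upstream of Pyy, so the genes that were lower at day 4 and those that were not both had it. The Gip window held 2. Of 32851 windows of this length upstream of mouse start sites, 66.2% held at least 1 match, so most start sites have one. TATAA, the core of the TATA box, was searched on both strands and overlapped no E box. It had 2 matches upstream of Gast, which overlap on opposite strands, 1 each upstream of Sct and Pyy, 2 upstream of Gip and none in these windows of Ghrl and Cck, and 22.8% of all windows held it. A match is a description of the letters and not a measured binding site.

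Values are log2 intensities, and a probe was counted as above background on an array where it exceeded 7.24, a level derived from the values. Between 44.1% and 46.4% of probes were above it on each array, and all 7 member probes exceeded it on at least 2 arrays, the filter for testing. The marker genes followed the labels: Ins2 lay between 14.06 and 14.91 on every progenitor and islet array and was not above background in ESC, while Pou5f1 averaged 11.76 ± 0.54 (SD, n = 2) in ESC. One array stood apart for a result below. Day 4 replicate 1 carried transcripts of some stomach mucosa genes, with Gkn1 at 8.93, Gkn2 at 9.51 and Tff1 at 10.18. Day 4 replicate 2 had 6.93, 6.88 and 7.08 for them, none above background. Gkn3, Muc5ac, Muc6, Pgc, Cblif, Chia1 and Barx1 of the same list were not above background on either day 4 array. The stomach list (8 of 13 genes measured) averaged 8.39 on day 4 replicate 1 and 7.31 on day 4 replicate 2. It averaged 7.31 to 7.39 at day 0, 7.21 to 7.41 at day 1 and 7.81 to 7.92 in adult islets. Atp4b, a subunit of the parietal cell proton pump, was not above background on any array. Atp4a, the other subunit, read 8.36 and 7.92 at day 4, against 7.58, 7.42, 7.63 and 7.53 at day 0 and 7.46, 7.13 and 7.06 at day 1. It was above background on both day 4 arrays and higher there than at day 0 by 0.60 ± 0.15 log2 units (adjusted p = 0.0313) and than at day 1 by 0.92 ± 0.16 (adjusted p = 0.0222). The part of these transcripts in the day 4 values of Gast and Ghrl was not tested, and those values are given below with and without that array.

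**Figure D1:**
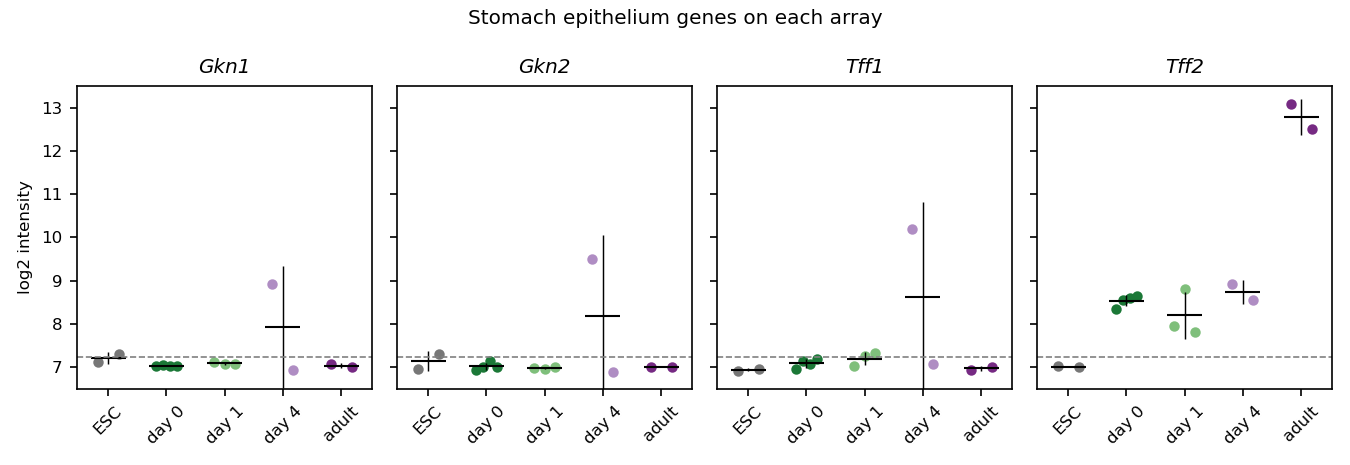
Log2 intensity (vertical axis) of 4 stomach epithelium genes on each array, by group in order of stage. Points are arrays, horizontal bars means, vertical lines SD and the dashed line the background level of 7.24. Gkn1, Gkn2 and Tff1 are high on 1 of the 2 day 4 arrays, and Tff2 is highest in adult islets.

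Ghrl transcripts were abundant in the progenitors, lower by day 4 and close to background in adult islets. Ghrl probe 1 (ILMN_2598022) read 7.14 and 7.09 in ESC, 13.29, 13.42, 13.45 and 12.42 at day 0, 12.59, 13.09 and 12.42 at day 1, 11.70 and 10.996 at day 4, and 7.66 and 7.75 in adult islets. Ghrl probe 2 (ILMN_2643658) read 7.08 and 7.002 in ESC, 14.23, 14.17, 14.37 and 13.74 at day 0, 13.87, 14.14 and 13.69 at day 1, 12.73 and 12.14 at day 4, and 8.07 and 8.06 in adult islets. Both probes ordered the groups alike, with day 0 and day 1 overlapping, day 4 below every day 0 and day 1 array, adult islets below day 4 but still above background, and ESC not above background. Day 1 differed from day 0 by -0.45 ± 0.26 log2 units (SE) by probe 1 (95% interval -1.03 to 0.13) and -0.23 ± 0.18 by probe 2 (-0.61 to 0.16), neither of them called. At day 4 Ghrl fell against day 0, with a log2 difference of -1.80 ± 0.30 on probe 1 and -1.70 ± 0.20 on probe 2, which are 3.47-fold and 3.24-fold, and adjusted p of 0.00479 and 0.000733 by limma. Without day 4 replicate 1, the array with stomach transcripts, these differences were -2.15 (adjusted p = 0.0215) and -1.99 (adjusted p = 0.00371). Without day 4 replicate 2 the probe 1 difference was -1.44 and lost its call (adjusted p = 0.0918, the highest of 22 alternatives, which began at 0.000896), while that of probe 2 was -1.40 and kept it (adjusted p = 0.0183).

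Against day 1, probe 2 fell by 1.47 ± 0.21 log2 units at day 4 (adjusted p = 0.0111) and probe 1 differed by -1.35 ± 0.32, which was not called (adjusted p = 0.0689), although the day 4 arrays lay below the day 1 arrays on both. Without day 4 replicate 1 these differences were -1.76 on probe 2 (adjusted p = 0.0475) and -1.70 on probe 1 (adjusted p = 0.206). The probe 2 call was lost without day 4 replicate 2 (adjusted p = 0.152) and in 3 of 23 alternatives in all, whose adjusted p ran from 0.00670 to 0.152. Probe 1 was called in 2 of 22 alternatives (an intensity trend with robust variance estimation, and without day 0 replicate 4), whose adjusted p ran from 0.0242 to 0.560. In adult islets Ghrl was lower than at day 4, with differences of -3.64 ± 0.35 log2 units on probe 1 and -4.37 ± 0.23 on probe 2, or 12.5-fold and 20.6-fold, with adjusted p of 5.99e-05 and 7.82e-07. Without day 4 replicate 1 they were -3.29 on probe 1 and -4.07 on probe 2 (adjusted p = 0.00133 and 2.17e-05). Day 0 exceeded ESC at least 60.0-fold on probe 1 and at least 119-fold on probe 2, where the ESC side is the background level (adjusted p = 8.06e-08 and 1.39e-09). On 3 of the 4 day 0 arrays the brightest probe exceeded probe 2 by only 0.27 to 0.37 log2 units, so its differences from day 0 may be compressed. In bulk RNA such as this, fewer cells of a type and less RNA per cell cannot be told apart.

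**Figure D2:**
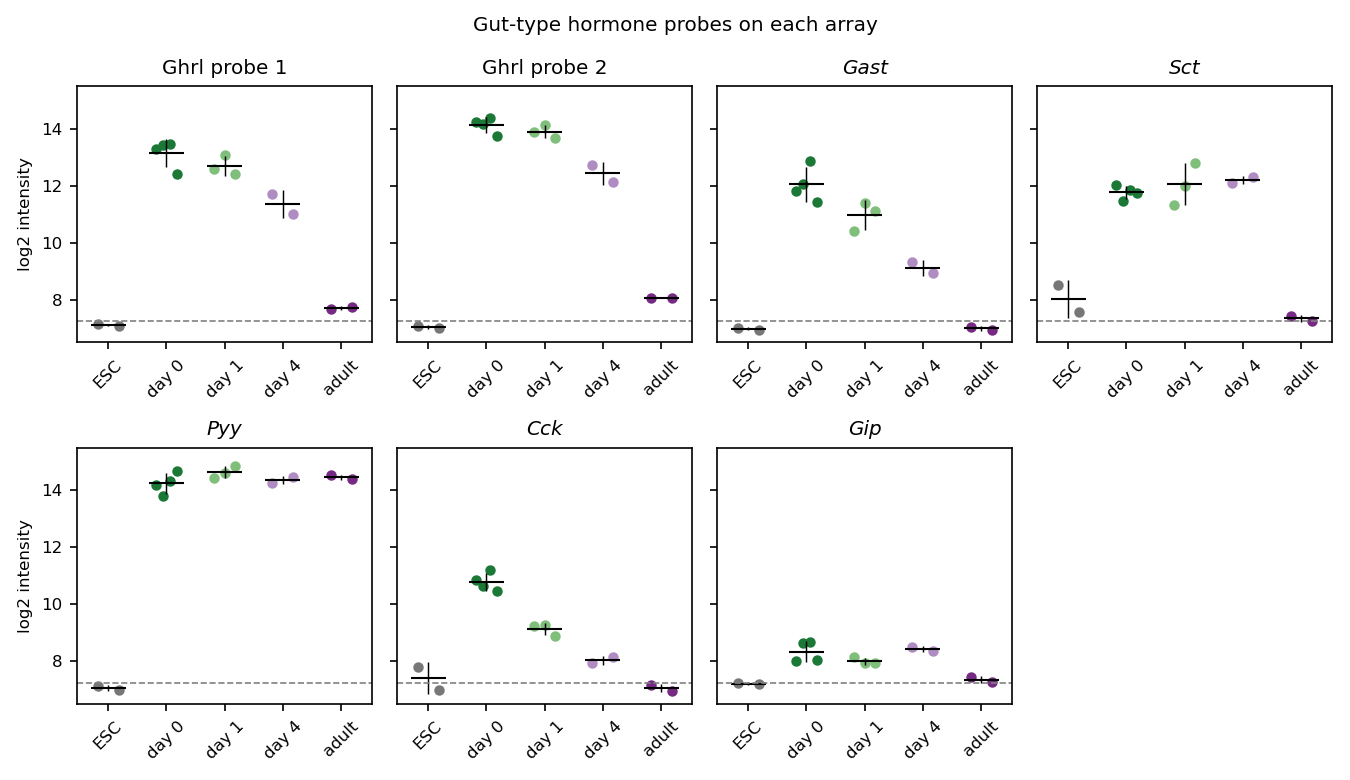
Log2 intensity (vertical axis) of the 7 probes of the gut-type hormone genes on each array, by group in order of stage. Points are arrays, horizontal bars means, vertical lines SD and the dashed line the background level of 7.24. Ghrl, Gast and Cck are lower at day 4 than on all day 0 arrays, Sct is above 11.3 on all progenitor arrays and near background in adult islets, Pyy stays above 13.7 on all progenitor and islet arrays, and Gip is dim throughout.

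Gast was high at day 0, lower at day 4 and not detected above background in adult islets. The probe (ILMN_1241636) read 7.02 and 6.94 in ESC, 11.82, 12.08, 12.86 and 11.42 at day 0, 10.39, 11.41 and 11.11 at day 1, 9.32 and 8.93 at day 4, and 7.06 and 6.93 in adult islets. No day 0 array overlapped day 1, no day 1 array overlapped day 4, and neither adult islets nor ESC rose above background. The highest day 1 and the lowest day 0 array were nonetheless nearly equal, and the day 1 difference of -1.07 ± 0.31 log2 units was not called (adjusted p = 0.0989, 95% interval -1.76 to -0.38). At day 4 Gast fell against day 0, with a difference of -2.92 ± 0.35 log2 units, or 7.57-fold (adjusted p = 0.000869), of -3.12 without day 4 replicate 1 (adjusted p = 0.0132) and of -2.72 without day 4 replicate 2 (adjusted p = 0.0240). The difference from day 1 of -1.85 ± 0.37 was just called (adjusted p = 0.0418). It lost the call in 13 of 23 alternatives, among them without day 4 replicate 1 (-2.04, adjusted p = 0.241), without day 4 replicate 2 (-1.65, adjusted p = 0.374) and with the replicate block (0.101), over a range of adjusted p from 0.0146 to 0.374. The other arrays whose removal ended that call were either ESC array, day 0 replicates 1 and 2, day 1 replicates 2 and 3 and either adult array, each left out in turn. Adult islets were at least 3.70-fold lower than day 4 (adjusted p = 0.00597) and at least 28.0-fold lower than day 0 (adjusted p = 2.81e-06). Without day 4 replicate 1 the difference between adult islets and day 4 was -1.93 log2 units, against -2.13 with all arrays, and it was not called (adjusted p = 0.0644, the highest of 23 alternatives, which began at 0.000117).

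Cck was the only member called at the first step of differentiation. Its probe (ILMN_1252990) read 7.81 and 6.9999 in ESC, 10.86, 10.65, 11.19 and 10.46 at day 0, 9.24, 9.27 and 8.89 at day 1, 7.92 and 8.14 at day 4, and 7.15 and 6.94 in adult islets. The progenitor groups did not overlap and stepped down from day 0 to day 1 to day 4, and the adult arrays were at background, as was 1 of the 2 ESC arrays. At day 1 Cck fell by 1.65 ± 0.21 log2 units against day 0, or 3.14-fold (adjusted p = 0.00186). At day 4 the difference from day 0 reached -2.76 ± 0.24, or 6.77-fold (adjusted p = 0.000128). From day 1 to day 4 the difference of -1.11 ± 0.25 was not called (adjusted p = 0.0672), and it was called in 3 of 23 alternatives, whose adjusted p ran from 0.0355 to 0.517 and which left out ESC replicate 1, ESC replicate 2 or day 0 replicate 3. In adult islets Cck was at least 11.7-fold lower than at day 0 (adjusted p = 1.49e-06). It was at least 1.73-fold lower than at day 4 (adjusted p = 0.0422). That call was lost in 11 of 23 alternatives, including each that left out 1 day 4, day 1 or adult array alone, or day 0 replicate 1 or 2. The difference ran from -1.73 to -0.87 log2 units over all alternatives.

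Sct was high at all 3 progenitor stages, with no difference called between them, and low in adult islets. The probe (ILMN_2592834) read 8.51 and 7.57 in ESC, 12.03, 11.47, 11.85 and 11.74 at day 0, 11.34, 12.01 and 12.80 at day 1, 12.09 and 12.30 at day 4, and 7.43 and 7.27 in adult islets. The day 1 arrays spanned the range of day 0 and day 4, and both day 4 arrays lay just above all day 0 arrays. Day 4 differed from day 0 by 0.42 ± 0.35 log2 units (95% interval -0.36 to 1.20, adjusted p = 0.491), day 1 from day 0 by 0.28 ± 0.31 (-0.41 to 0.97) and day 4 from day 1 by 0.15 ± 0.37 (-0.68 to 0.97). These intervals leave room for changes of about 1 log2 unit, so equal levels were not shown. In adult islets Sct fell by 4.84 ± 0.41 log2 units against day 4, or 28.7-fold (adjusted p = 2.53e-05), and its difference from day 0 was -4.42 ± 0.35 (adjusted p = 7.44e-06). Both adult arrays were still just above background. In ESC Sct was above background on both arrays, and day 0 exceeded ESC by 3.73 ± 0.35 log2 units (adjusted p = 9.40e-06).

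Pyy was near the top of the scale in every pancreatic group, and it was the one member not called lower in adult islets. Its probe (ILMN_1259546) read 7.13 and 6.98 in ESC, 14.17, 13.79, 14.32 and 14.68 at day 0, 14.45, 14.62 and 14.85 at day 1, 14.26 and 14.46 at day 4, and 14.52 and 14.38 in adult islets. All 4 pancreatic groups overlapped, and ESC was not above background. Adult islets differed from day 4 by 0.09 ± 0.24 log2 units (95% interval -0.43 to 0.62) and from day 0 by 0.21 ± 0.21 (-0.24 to 0.67). Day 1 differed from day 0 by 0.40 ± 0.18 (adjusted p = 0.310) and day 4 from day 0 by 0.12 ± 0.21 (-0.33 to 0.57). The brightest probe exceeded it by 0.28 to 0.65 log2 units on these 11 arrays, so a change may be compressed and a small one may not be measurable. Day 0 exceeded ESC at least 128-fold (adjusted p = 1.39e-09).

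Gip was detected weakly at every progenitor stage and was lower in adult islets. Its probe (ILMN_2986549) read 7.25 and 7.19 in ESC, 7.99, 8.63, 8.67 and 8.05 at day 0, 8.13, 7.93 and 7.93 at day 1, 8.51 and 8.37 at day 4, and 7.45 and 7.26 in adult islets. Day 4 lay inside the range of day 0 and above all day 1 arrays, and both adult arrays were just above background. Day 4 differed from day 0 by 0.10 ± 0.19 log2 units (95% interval -0.32 to 0.53) and from day 1 by 0.44 ± 0.20 (-0.0039 to 0.89), and day 1 from day 0 by -0.34 ± 0.17 (-0.71 to 0.03), none of them called. In adult islets Gip fell by 1.08 ± 0.22 log2 units against day 4, or 2.12-fold (adjusted p = 0.00861), and its difference from day 0 was -0.98 ± 0.19 (adjusted p = 0.00300). The call against day 4 was lost without day 4 replicate 1 (adjusted p = 0.0769) or adult islets replicate 2 (0.0760), over a range of 0.000460 to 0.0769 in 23 alternatives. Day 0 exceeded ESC by 1.12 ± 0.19 log2 units (adjusted p = 0.000660).

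Counted together, the members were called in 1 direction in each comparison. As they were chosen with earlier results of these data known, the shares of all probes given below are a description and not a test. Between day 1 and day 0, 1 of 7 probes was lower (Cck), against 1.89% of all 14946 probes tested. At day 4, 4 of 7 were lower than at day 0 (both Ghrl probes, Gast and Cck), against 5.12% of all probes, and 2 of 7 were lower than at day 1 (Ghrl probe 2 and Gast), against 0.428%. In adult islets 6 of 7 were lower than at day 4 (all but Pyy), against 5.68% of all probes, and the same 6 were lower than at day 0, against 17.1%. At day 0 all 7 were higher than in ESC, against 23.6% of all probes. The comparisons share arrays, day 0 entering 4 of them and day 4 entering 3, so they do not repeat one another independently. The medians over all 10382 genes lay between -0.07 and 0.05 log2 units in the 6 comparisons.

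**Figure D3:**
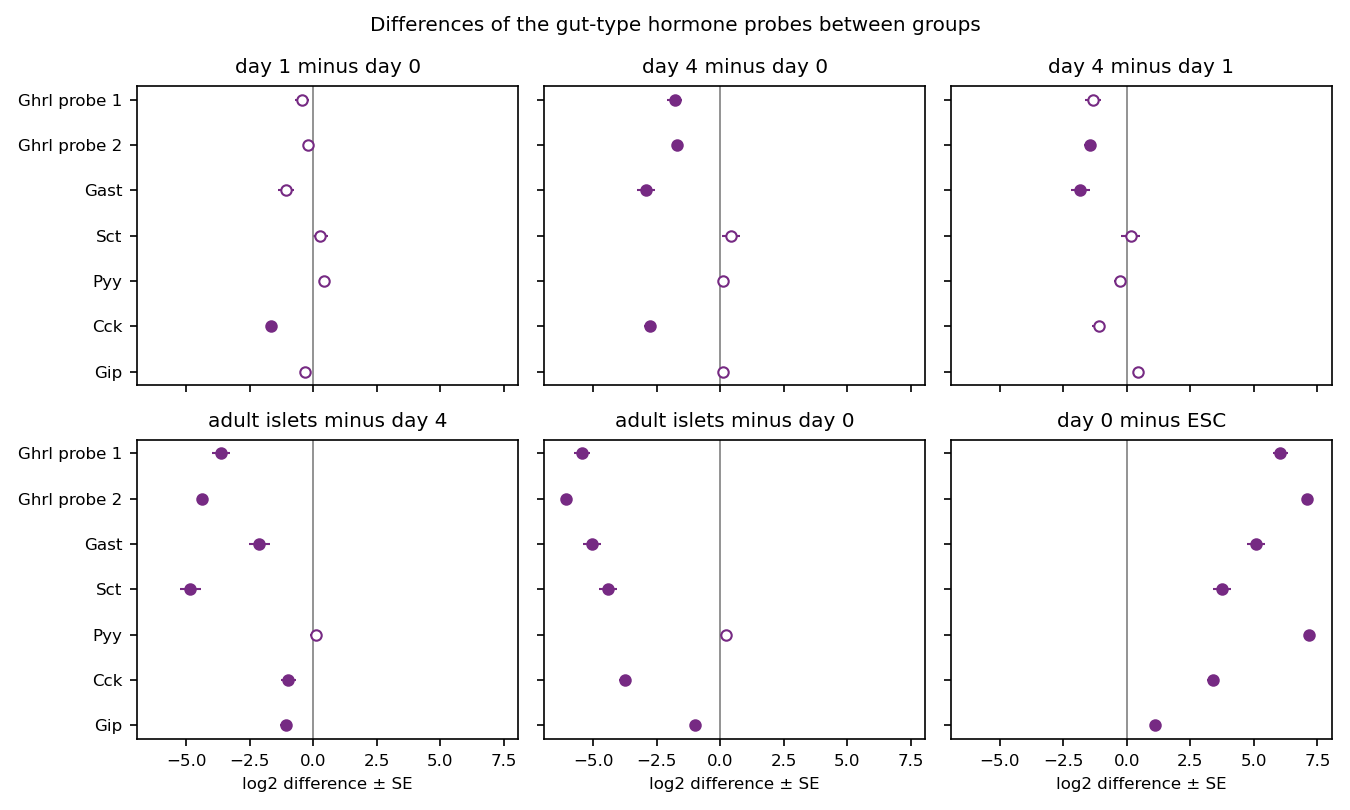
Log2 difference ± SE (horizontal axis) of the 7 probes in each of the 6 comparisons, with the second-named group as the base. Filled points were called at an adjusted p under 0.05 and open points were not. The filled points for Ghrl, Gast and Cck lie at -1.70 to -2.92 for day 4 minus day 0, and every probe but Pyy lies left of 0 for adult islets minus day 4.

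The members did not vary as 1 block over the 11 pancreatic arrays. The Ghrl probes had a Pearson r of 0.99 with each other, and Ghrl probe 1 had 0.96 with Gast, 0.89 with Sct and 0.86 with Cck. Gast and Cck had 0.95, Sct and Cck 0.61, and Pyy ranged from -0.45 with Gip to 0.04 with Sct. These arrays fall into 4 stage groups that differ in many genes, so the values describe shared steps between groups. Pyy is the exception, since its 4 groups overlapped with no difference called. Its values describe variation between arrays near the top of the scale. The genes most like each member over the same arrays, by the highest r among 1 probe per gene, were Grb10 (0.99), Igf2bp3 (0.99) and Vangl2 (0.98) for Ghrl, Tsg101 (0.99), Cdhr5 (0.98) and Cct3 (0.98) for Gast, and Lyrm2 (0.99), St6galnac2 (0.99) and Apoc1 (0.98) for Cck. For Sct they were Casp6 (0.97), Cdk2 (0.97) and Nrep (0.97), for Pyy the ribosomal protein genes Rpl41 (0.95) and Rpl23 (0.90) with glucagon (Gcg, 0.95), and for Gip Zfyve1 (0.96), Ece1 (0.93) and Igsf5 (0.92). Grb10, which encodes an adaptor that dampens insulin receptor signalling, had a mean of 13.49 ± 0.21 over the day 0 arrays (SD, n = 4), 13.23 ± 0.13 over those of day 1 (n = 3), 12.38 ± 0.12 over those of day 4 (n = 2) and 10.18 ± 0.14 in adult islets (n = 2). Cdhr5, a cadherin of the intestinal brush border, averaged 8.18 ± 0.18, 7.82 ± 0.05, 7.34 ± 0.02 and 6.97 ± 0.01 in the same groups. Rpl41 averaged 14.45 ± 0.42, 14.85 ± 0.24, 14.71 ± 0.08 and 14.71 ± 0.05 there, so both Rpl41 and Pyy sat near the top of the scale.

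Other peptide hormones of gut and islet moved in both directions. Of 17 measured genes of a list of 20, 4 rose and 2 fell at day 4 against day 0, with a median difference of 0.01 log2 units against -0.03 over all 10382 genes, of which 5.22% were called higher and 5.81% lower. Neuropeptide Y (Npy), of the same peptide family as Pyy, read 13.69 and 13.56 at day 4, against 10.94, 11.65, 11.36 and 11.71 at day 0. Pancreatic polypeptide (Ppy), the third member of that family, read 13.53 and 13.09 at day 4, against 10.94, 12.07, 11.21 and 10.87 at day 0. Neither gene overlapped between the groups, and they rose by 2.21 ± 0.34 and 2.04 ± 0.30 log2 units (adjusted p = 0.00305 and 0.00255). The other risers were galanin (Gal, 1.27 ± 0.14) and somatostatin (Sst, 0.84 ± 0.13), and those that fell were the tachykinin gene Tac1 (-0.65 ± 0.19) and the guanylin gene Guca2a (-0.65 ± 0.15). At day 1, Sst and neurotensin (Nts) were the 2 called higher than at day 0, Sst by 0.66 ± 0.11 log2 units and Nts at least 1.335-fold. Sst averaged 13.74 at day 0, 14.39 at day 1 and 14.58 at day 4, near the top of the scale, so its rises may be compressed.

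Adult islets differed from day 4 in 5 genes of that list, with 4 higher and 1 lower, and a median of -0.03 log2 units. Of all genes 7.29% were called higher and 6.61% lower, with a median of -0.04. Vasoactive intestinal peptide (Vip) read 10.85 and 11.74 in adult islets and was not above background on any progenitor array, and adult islets exceeded day 4 at least 16.65-fold (adjusted p = 5.65e-07). Tac1 read 9.23 and 9.24 in adult islets, against 7.19 and 7.41 at day 4, and was higher by 1.93 ± 0.22 log2 units (adjusted p = 0.000206). Ppy was higher by 1.36 ± 0.34, gastrin-releasing peptide (Grp) at least 2.09-fold, and Npy fell by 2.72 ± 0.39 (adjusted p = 0.000983). Ppy averaged 14.67 in adult islets, near the top of the scale, so its rise may be compressed. Thus Vip, Tac1 and Grp had their highest levels in the group in which Ghrl, Gast, Sct, Cck and Gip had their lowest of the pancreatic groups. Other genes of the list had their lowest pancreatic mean there too, among them Npy (10.90) and Guca2a (7.25). Guca2a was lower in adult islets than at day 0 by 0.98 ± 0.15 log2 units (adjusted p = 0.000798).

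**Figure D4:**
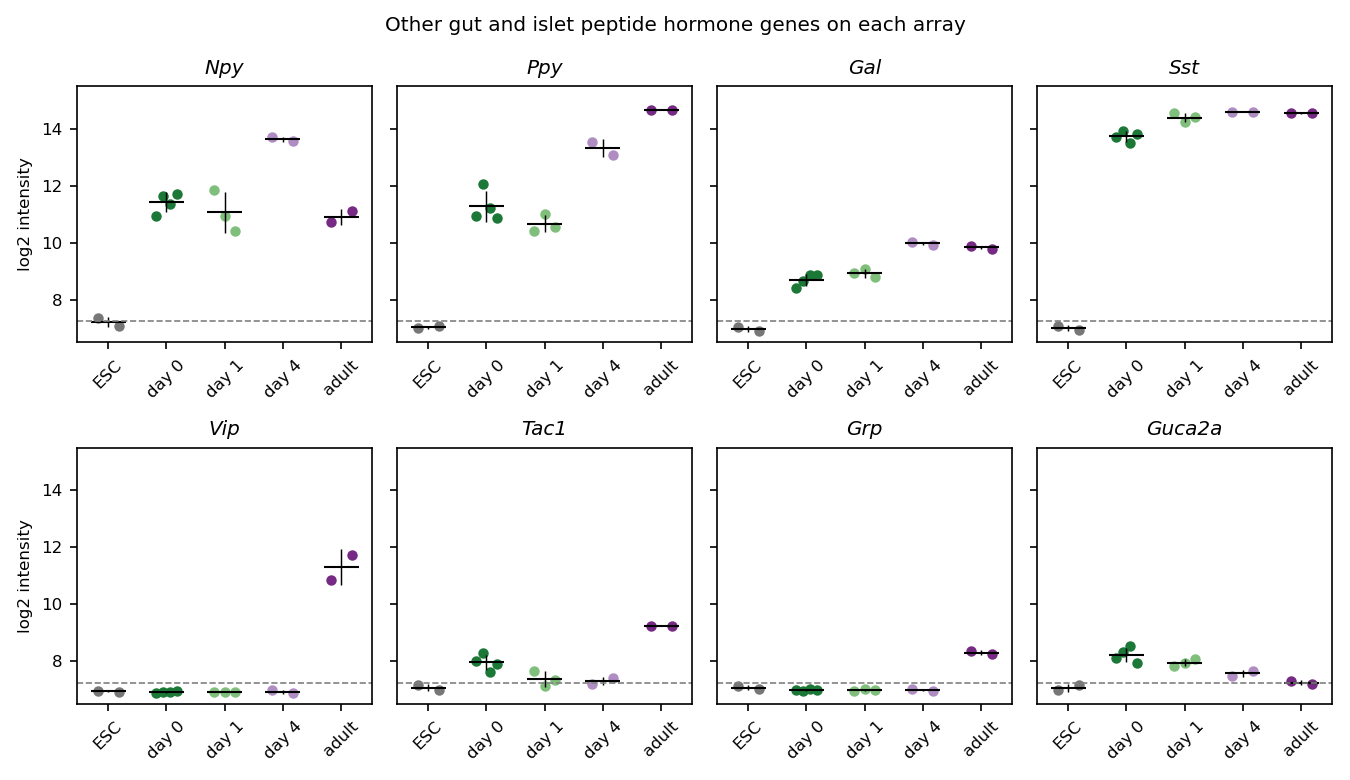
Log2 intensity (vertical axis) of 8 other gut and islet peptide hormone genes on each array, by group in order of stage. Points are arrays, horizontal bars means, vertical lines SD and the dashed line the background level of 7.24. Npy, Ppy and Gal are higher at day 4 than on all day 0 arrays, and Vip and Grp are above background in adult islets alone.

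A list of transcription factors of the enteroendocrine and epsilon lineages also held factors of other islet cells, such as Irx2. Genes of this list fell where they were called, both at day 4 against day 0 and in adult islets against day 4. Of 21 measured (24 listed), 4 fell and 0 rose at day 4 against day 0 by limma, with a median of -0.29 log2 units, and at an unadjusted p under 0.05 the counts were 9 and 1. Of all 10382 genes, 5.81% were called lower and 5.22% higher. Neurog3 read 8.97 and 8.55 at day 4, against 13.56, 13.44, 13.79 and 12.98 at day 0, and fell by 4.68 ± 0.52 (adjusted p = 0.000538). Pax4, a factor whose loss in mice enlarges the ghrelin cell population, was not above background at day 4 (7.07 and 7.005), against 11.04, 10.86, 11.13 and 10.71 at day 0, so it was at least 12.98-fold lower (adjusted p = 1.15e-05). Irx2 (-0.85 ± 0.23) and Myt1 (-0.61 ± 0.15) also fell. At day 1 Neurog3 (-3.30 ± 0.46) and Pax4 (-2.59 ± 0.20) were lower than at day 0. Among the members, Cck was also called lower then (-1.65 ± 0.21), while Ghrl and Gast were not called. Gast differed by -1.07 ± 0.31, and its highest day 1 array (11.41) was nearly equal to its lowest day 0 array (11.42). The factors and the members were not tested against each other. In adult islets 6 factors fell and 0 rose against day 4, led by Myt1 (-1.496 ± 0.17) and Isl1 (-1.43 ± 0.24), with a list median of -0.46, and at an unadjusted p under 0.05 the counts were 9 and 0. The shares of all genes called there were 6.61% lower and 7.29% higher.

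Of the genes that process and modify prohormones, the 2 called at day 4 against day 0 both rose. Of 10 measured (16 listed), 2 rose and 0 fell at day 4 against day 0 by limma (2 each at an unadjusted p under 0.05), with a median of -0.07 log2 units. Of all 10382 genes, 5.22% were called higher and 5.81% lower. Glutaminyl cyclase (Qpct), which forms the pyroglutamate end of some peptides, read 8.79 and 8.83 at day 4, against 7.69, 7.55, 7.21 and 7.44 at day 0, and rose by 1.33 ± 0.20 (adjusted p = 0.00307). The 7B2 chaperone gene Scg5 rose by 0.94 ± 0.24. In adult islets Pcsk1n, which encodes an inhibitor of prohormone convertase 1, was higher than at day 4 by 1.60 ± 0.23, and Qpct fell by 1.05 ± 0.23. Dpp4, whose enzyme trims peptide YY and gastric inhibitory polypeptide, was the 1 gene called at day 1, where it fell by 1.502 ± 0.23 against day 0 (adjusted p = 0.00539).

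A list of gut hormone receptors, which also held receptors for glucagon, somatostatin and vasoactive intestinal peptide, gave little signal. Of 18 receptor genes on the array, 7 passed the filter, and the glucagon receptor gene Gcgr alone was above background on all 11 pancreatic arrays, between 7.35 and 8.56. The ghrelin receptor gene Ghsr lay between 7.01 and 7.42 on them and the secretin receptor gene Sctr between 7.03 and 7.32. Of the genes that passed, only Ghsr, Sctr and Npy1r are receptors for a member. At day 4, 1 receptor (Npy1r) fell against day 0, at least 1.12-fold, while 5.81% of all 10382 genes were called lower. Npy1r was close to background, at 7.36 to 7.44 on the day 0 arrays. Between adult islets and day 4, 0 of 7 receptors were called by limma (2 at an unadjusted p under 0.05). The list medians were -0.10 and 0.03 log2 units. Of the serotonin genes, 3 of 7 passed, and Ddc, which makes serotonin and dopamine from their precursors, was lower at day 1 than at day 0 (-1.21 ± 0.14) and higher in adult islets than at day 4 by 1.97 ± 0.18, with Tph2 also higher in adult islets, at least 1.80-fold. At day 4, 0 of the 3 were called against day 0 by limma (1 at an unadjusted p under 0.05).

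Nutrient sensors of enteroendocrine cells moved in both directions. Of 11 measured (17 listed), 2 rose and 2 fell at day 4 against day 0, and the median was -0.10 log2 units. Of all 10382 genes, 5.22% were called higher and 5.81% lower. The short-chain fatty acid receptor gene Ffar2 read 10.41 and 10.38 at day 4, against 12.01, 11.94, 11.71 and 11.54 at day 0, and fell by 1.41 ± 0.19 (adjusted p = 0.00165). The long-chain fatty acid receptor gene Ffar4 read 12.20 and 12.06 at day 4, against 11.39, 11.55, 11.16 and 11.22 at day 0, and rose by 0.80 ± 0.18 (adjusted p = 0.0196). The other called genes, Ffar1 (at least 1.17-fold higher) and Tas1r2 (at least 1.19-fold lower), were close to background. In adult islets Ffar4 (-2.20 ± 0.21) and Ffar2 (-1.04 ± 0.22) fell against day 4, and the cation channel gene Trpm5 was higher by 2.79 ± 0.19.

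Marker genes of other cell types differed between the groups beside the members. Red cell markers fell with Ghrl, Gast and Cck between day 0 and day 4: 4 of 5 measured genes were called lower, the list averaged 7.10 to 7.17 at day 4 against 9.49 to 10.43 at day 0, and Hba-a1 was above background on 1 of the 2 day 4 arrays. The part of red cell transcripts in the members' falls was not tested. Intestinal epithelium markers (6 of 13 genes on the array measured, 1 called higher and 1 lower) averaged 7.70 to 7.80 at day 4 against 7.75 to 8.01 at day 0. Cdx2, the master factor of intestinal identity, was above background on 3 of the 4 day 0 arrays, with a highest value of 7.67, and on no other array. The acinar list (14 genes) averaged 10.17 to 10.42 at day 4 against 9.41 to 11.26 at day 0, and 1 of its genes was called higher and 1 lower. The ductal list (6 genes, 1 lower), the mesenchyme list (10 genes, 0 called by limma, 1 at an unadjusted p under 0.05), the endothelial list (8 genes, 0 called, 2 unadjusted), the immune list (7 genes, 2 lower) and the stomach list (8 genes, 1 higher) complete that comparison. In it 5.22% of all 10382 genes were called higher and 5.81% lower.

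In adult islets, acinar markers averaged 13.03 to 13.26, against 10.17 to 10.42 at day 4, with 6 of 14 called higher. Endothelial markers averaged 9.03 in adult islets, against 7.19 to 7.22 at day 4, with 7 of 8 called higher, Pecam1 among them. Immune markers averaged 8.70 to 9.48, against 7.13 to 7.15 at day 4, with 4 of 7 called higher, although Ptprc was not above background on any array. The called acinar, endothelial and immune genes were all higher in adult islets. Of all genes, 7.29% were called higher there than at day 4 and 6.61% lower. The islet hormone genes Ins2 and Gcg lay at 14.57 to 14.80 in adult islets and averaged 14.69 and 14.68 at day 4. Both sat near the top of the scale, so a change in them may be compressed. Stomach markers had 2 genes higher, intestinal 1 and red cell 1, and ductal and mesenchyme markers had 0 called by limma in adult islets against day 4 (3 and 1 at an unadjusted p under 0.05). The part of these markers in the members' lower levels in adult islets was not tested.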

How the data were processed

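The deposited values are log2 intensities from Illumina bead arrays, which the authors had normalized between arrays by a method not given in the sources used here. Per the labels' protocols, Trizol-extracted RNA was checked on a Bioanalyser and labelled with the Illumina TotalPrep kit. Base 2 was inferred from the range, 6.73 to 15.20, and any variance-stabilising transform is unknown. A table with 26 columns of per-sample values matches no label and was not used, so detection p-values and slides were not used either. No 2 replicates held identical values.

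A probe was tested if it exceeded 7.24 (the mode, 6.98, plus 5 times the SD below it, 0.052) on at least 2 arrays, which 14946 of 25697 did. Probes were named by GEO's platform annotation, in which 23978 name 1 gene, 0 name several and 1719 none. The 5 group means were fitted to the 13 arrays with limma 3.58.1 in R 4.3.3 (lmFit and eBayes, 8 residual and 2.79 prior degrees of freedom). Calls required an adjusted p below 0.05 (Benjamini-Hochberg, over all tested probes). Where no array of a group exceeded the background level, the fold is a lower bound against that level, and 95% intervals come from the same fit. The number of arrays limits the precision.

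The members and the 14 gene lists (197 genes, 175 on the array, 133 measured, each through its probe with the highest mean) were chosen with earlier results of these data known. Besides the members, the named genes are up to 2 called rises and 2 falls per list and comparison, fixed marker genes, and the 3 genes most correlated with each member. Gal, Grp, Irx2, Gkn2, Tff1, Ghsr and Sctr were named after their values were seen. List genes without a probe are not analysed here. Alternatives were other filters, scalings, background subtraction, variance models, 1 probe a gene, only the compared groups, a replicate block, and leaving out arrays.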

Additional observations from a re-analysis of the deposited data

Results flagged for a closer look

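Ghrl probe 1 had 1 day 0 array far from the others: replicate 4 read 12.42, against 13.29 to 13.45 on the other three, and its gap to the nearest of them was 0.8468 of the group's whole range, above Dixon's 95% critical value for 4 samples. The second Ghrl probe was also lowest on that array, at 13.74 against 14.17 to 14.37, with a ratio of 0.6863, below that value. Chance flags about 1 in 20 groups, and 7 probes were examined. Without day 0 replicate 4 the probe 1 difference between day 4 and day 0 was -2.04 log2 units, against -1.80 with it.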

How the results depend on the processing

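The 42 differences (7 probes in 6 comparisons) were recomputed under 23 alternatives, and the call of 34 of them changed in none. The count of members lower at day 4 than at day 1, 2 as reported, was 1 with no filter, 0 with only the 2 groups in the fit, 0 with the replicate block, and 0 to 3 when 1 array was left out in turn. Over all probes that comparison had 209 calls, 17 with only the 2 groups, 19 with the replicate block and 8 to 441 with arrays left out. The count of members lower in adult islets than at day 4, 6 as reported, ran from 3 (without day 4 replicate 1) to 6 with arrays left out. The counts of all probes called also moved by over 1.5 times elsewhere. They ran from 186 to 623 for day 1 against day 0 (519 as reported), from 228 to 1836 for day 4 against day 0 (1532), from 822 to 5483 for adult islets against day 4 (1872) and from 2499 to 5182 for adult islets against day 0 (4805). Leaving out day 0 replicate 3 together with day 1 replicate 2, an alternative chosen after seeing the data, left each of the 6 counts of members as reported, and day 1 replicate 2 enters comparisons without day 1 only through the shared spread. Reversed signs occurred for uncalled differences alone. With arrays left out, Sct at day 1 against day 0 ran from -0.10 to 0.63 and at day 4 against day 1 from -0.21 to 0.52, Pyy at day 4 against day 0 from -0.030 to 0.27 and Gip from -0.012 to 0.21, and Pyy in adult islets against day 4 from -0.0072 to 0.20, with -0.14 after quantile normalization. The cause was not tested, except that leaving out an array leaves fewer samples. The replicate numbers were not taken to pair the samples, since the labels give them no shared source and the deviations of same-numbered arrays had correlations from -0.342 to 0.387 over all comparisons. Besides the counts above, that block ended the calls of Ghrl probe 2 and Gast at day 4 against day 1 (adjusted p = 0.0513 and 0.101) and of Cck in adult islets against day 4 (0.0660). The slide as a block was not run. Groups of 2 arrays limit every comparison, a group left with 1 array is assumed to vary like the others, and probes close to background or to the top of the scale give compressed differences.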
